A study of Mus musculus with 2 samples.

Results

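The regions described here were open chromatin regions of mouse common myeloid progenitors that the peak lists of 1 of 2 ATAC-seq libraries held and those of the other did not. They were chosen by peak calls, that is by measured values: they were found by merging the overlapping peaks of the IDR-thresholded list of replicate 1 on chromosomes 1 to 19 and keeping each merged region that shared no base with any row of the 3 lists of replicate 2. Those 3 lists were IDR-thresholded, pseudoreplicated and IDR-ranked, and the last 2 also hold weaker peaks. Of 46420 replicate 1 regions, 1000 met the rule (2.15%, exact 95% interval 2.02 to 2.29), and they are called replicate 1-only regions. The other 45420 are called shared regions.

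Both libraries were made from 50000 primary common myeloid progenitors of adult male C57BL/6J mice of 5 to 6 weeks, with no treatment and no second cell type. Both carry the same donor label, and separate animals are not named for them. Technical differences between the libraries and differences between animals therefore cannot be told apart. Replicate 1 was run on 2 sequencing instruments per its labels, while the labels of replicate 2 name none, and the read depth of both is unknown from the files. With 1 library on each side no test over samples was possible, and every interval below covers counting error over regions only.

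ATAC-seq uses a transposase that inserts adapters into DNA not covered by nucleosomes, so that peaks mark promoters, enhancers and insulators in use. The common myeloid progenitor gives rise to the granulocyte and monocyte lineage and to the erythroid and megakaryocyte lineage. Its distal open regions often carry sites of PU.1 (Spi1), which drives myeloid fates, of RUNX factors, and of GATA factors, which act in early progenitors and in the erythroid and megakaryocyte lineage. CTCF binds insulators and the anchors of chromatin loops, and most of its sites are occupied in many tissues.

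The sequences of the strongest replicate 1-only regions are shown first, because the matches they hold recur in the results on motifs. Each line gives a summit with 50 bp to either side, on the + strand of GRCm38 (mm10), and is named after the gene with the nearest protein-coding start (GENCODE M21), which need not be the gene it lies in. The first 3 are the strongest ones at a promoter whose window met no annotated UTR. Capitals mark a match to any of the 22 motifs searched. At Chil5 they mark the letters TGATAA of the GATA factors and at Gm9936 the letters AGNNGGCGC of CTCF, both on the reverse strand, and the window at Plcb4, a tandem repeat, holds no match.
Chil5, chr3:106032933-106033033: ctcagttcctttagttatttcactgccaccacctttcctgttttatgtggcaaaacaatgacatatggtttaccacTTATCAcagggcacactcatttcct
Plcb4, chr2:135988618-135988718: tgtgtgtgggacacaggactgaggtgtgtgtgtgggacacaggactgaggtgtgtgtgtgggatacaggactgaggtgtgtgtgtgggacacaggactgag
Gm9936, chr5:114859435-114859535: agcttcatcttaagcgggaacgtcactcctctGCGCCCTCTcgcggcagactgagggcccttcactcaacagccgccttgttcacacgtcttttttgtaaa
The next 4 are the strongest distal ones. Here capitals mark only CTCF matches, either to the short letters searched (AGNNGGCGC or AGNNGGCAG) or to a longer consensus of 13 positions with at most 2 mismatches.
BC051142, chr17:34411270-34411370: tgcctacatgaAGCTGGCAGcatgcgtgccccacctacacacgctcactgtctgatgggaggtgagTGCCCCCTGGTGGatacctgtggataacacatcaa
Map4, chr9:110072019-110072119: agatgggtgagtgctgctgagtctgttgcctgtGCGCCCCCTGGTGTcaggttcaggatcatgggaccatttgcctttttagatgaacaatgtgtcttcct
B3galt2, chr1:141961892-141961992: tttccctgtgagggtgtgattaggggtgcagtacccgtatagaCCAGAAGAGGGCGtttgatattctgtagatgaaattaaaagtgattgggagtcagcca
Ttll6, chr11:96145727-96145827: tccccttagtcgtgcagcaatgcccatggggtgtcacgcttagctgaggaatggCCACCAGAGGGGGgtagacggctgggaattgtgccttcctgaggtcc
The last 5 are the strongest distal ones with a match to the letters of 5 blood factors, marked in capitals. They are GAGGAAGT for PU.1 in the window near Ppm1l, TGTGGTT for RUNX factors near Habp2, AGATAA (or its variant with T in front) for GATA factors near Ttn, TTGCNNAA for C/EBP factors near Tra2b and TGANTCA for AP-1 near Thegl. Capitals in these 5 mark only the factor named. The windows near Habp2, Ttn, Tra2b and Thegl also hold the longer CTCF consensus, unmarked here. That near Thegl holds the short CTCF letters AGNNGGCAG as well. The strongest with a short CTCF match is the one near BC051142, shown above. A match is a description of the letters and not a measured binding site.
Ppm1l, chr3:69439264-69439364: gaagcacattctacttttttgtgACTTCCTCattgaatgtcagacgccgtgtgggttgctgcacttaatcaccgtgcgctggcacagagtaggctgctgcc
Habp2, chr19:56349503-56349603: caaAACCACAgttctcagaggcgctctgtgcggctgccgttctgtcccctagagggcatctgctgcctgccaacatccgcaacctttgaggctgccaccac
Ttn, chr2:76929861-76929961: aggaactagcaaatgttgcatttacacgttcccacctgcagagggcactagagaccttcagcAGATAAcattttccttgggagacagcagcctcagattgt
Tra2b, chr16:22302760-22302860: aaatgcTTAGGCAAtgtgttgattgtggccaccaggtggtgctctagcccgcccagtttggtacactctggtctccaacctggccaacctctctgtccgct
Thegl, chr5:77029901-77030001: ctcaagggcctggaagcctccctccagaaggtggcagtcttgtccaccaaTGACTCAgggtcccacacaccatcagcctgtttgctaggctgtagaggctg

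Replicate 1-only regions were weaker and narrower than shared regions. The values in this and the next paragraph come from the lists that chose the regions, so they are a description. The median signal, a value the authors' peak caller gave each peak on a scale that is not stated, was 7.03 in replicate 1-only regions and 8.75 in shared regions, with ranges of 1.94 to 12.3 and 1.80 to 39.5. The median −log10 p was 18.5 in replicate 1-only regions and 34.2 in shared regions. The median width was 260.5 bp in replicate 1-only regions and 518 bp in shared regions, and a single peak made up 94.7% of the replicate 1-only and 64.3% of the shared regions. Weighted to the signal of the replicate 1-only regions, the shared regions were still wider, with means of 296 bp in replicate 1-only and 505 bp in shared regions of like signal. Signal, −log10 p and width therefore pick out different shared regions as the like ones, and the main location, composition and CTCF results below are given for all 3.

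**Figure D1:**
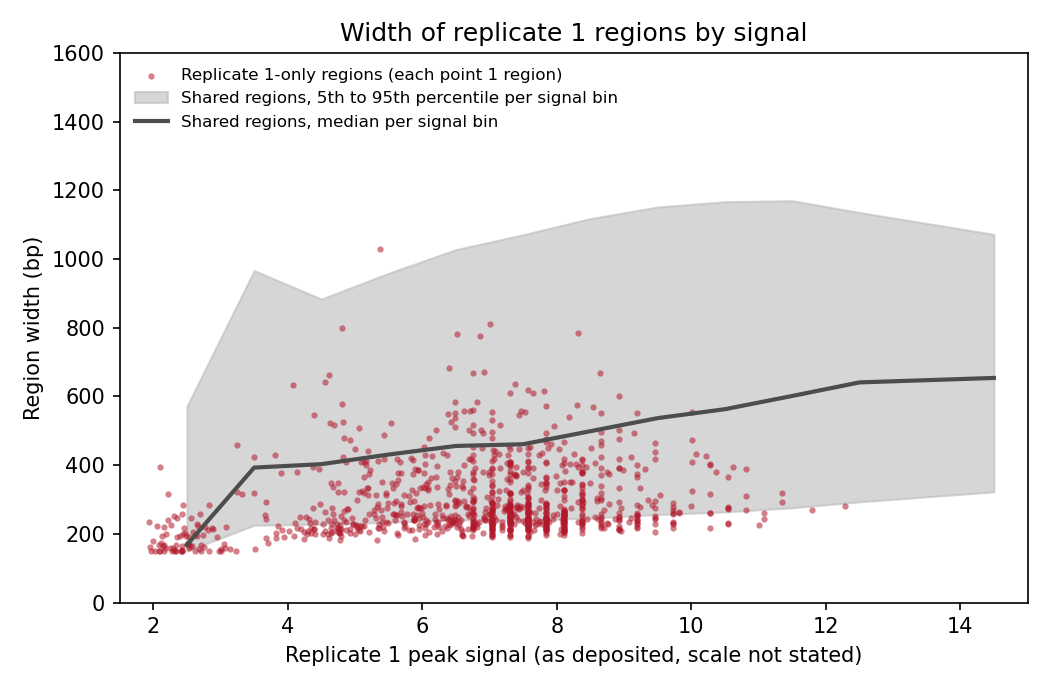
Width in bp (y axis) against replicate 1 peak signal (x axis) of the 1000 replicate 1-only regions, each a point, over the median (line) and the 5th to 95th percentile (band) of the shared regions in bins of signal. Most points lie under the line: the median width is 260.5 bp in replicate 1-only and 518 bp in shared regions.

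The share of replicate 1 regions without a replicate 2 row did not fall evenly with signal. It was 55.9% below a signal of 3 (71 of 127 regions), 3.09% from 6 to 7, 4.31% from 7 to 8 and 0.849% from 9 to 10, and it was 0 of 4469 at 13 or more, which allows up to 0.0671%. The 8 signal values most frequent among replicate 1-only regions were spaced 0.270 apart, between 6.76 and 8.65. They were carried by 322 of 1000 replicate 1-only regions (32.2%) and 4.41% of the shared ones. Because these values were picked from the replicate 1-only regions, their higher share there follows in part from that choice. Replicate 1-only regions on these values lay a median of 23032.5 bp from the nearest other replicate 1 region, and the other replicate 1-only regions 5595.5 bp. This distance was not taken for shared regions on these values, so it is not shown to be particular to replicate 1-only regions. At the edge of the rule, 86 replicate 1-only regions had a replicate 2 row within 150 bp, the nearest 27 bp away, with a median signal of 2.58. On the other side of it, 9 shared regions met replicate 2 rows by under 50 bp, the least by 2 bp, with a median signal of 2.5.

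**Figure D2:**
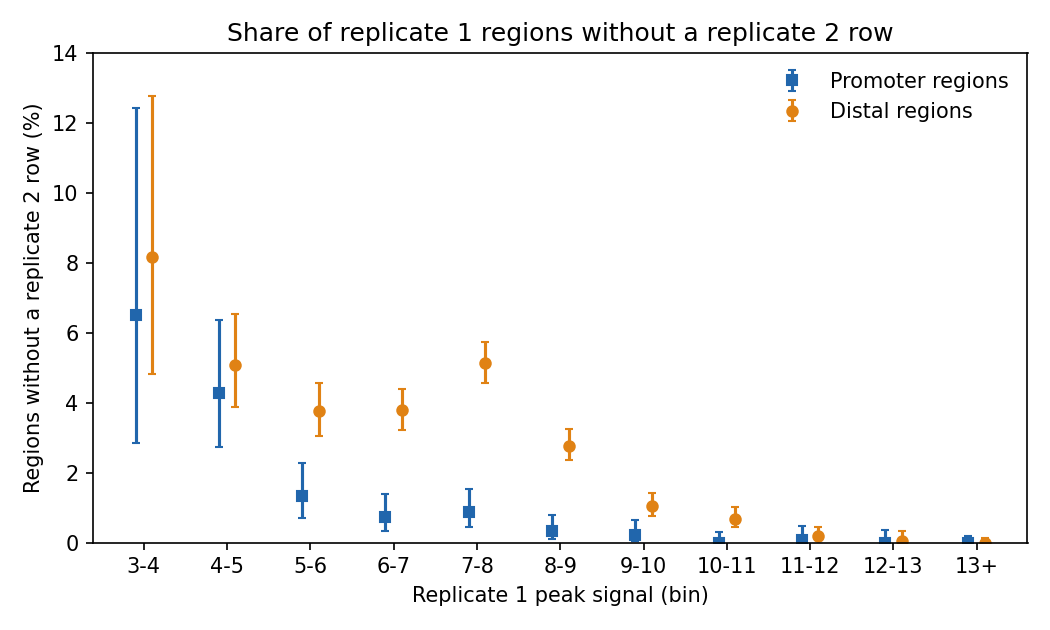
Percent of replicate 1 regions with no replicate 2 row (y axis) in bins of replicate 1 peak signal from 3 up (x axis), for promoter and distal regions, with exact 95% intervals. From a signal of 7 to 8 the share is 0.875% of promoter and 5.13% of distal regions.

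Replicate 1-only regions lay at promoters less often than shared regions. A summit within 1 kb of a protein-coding start was found in 92 of 1000 replicate 1-only regions (9.20%), in 26.9% of the shared regions and in 24.4% of shared regions of like signal. The Mantel-Haenszel odds ratio over 20 classes of signal was 0.281 (95% interval 0.223 to 0.354). Put the other way, 0.747% of promoter regions and 2.66% of distal regions had no replicate 2 row. The odds ratio was 0.587 (0.467 to 0.738) over classes of −log10 p and 0.771 (0.613 to 0.969) over classes of width. The size of the deficit thus depended strongly on the measure matched, while its interval stayed below 1. It was 0.179 among the upper 50% of regions by signal, and 0.501 against shared regions that only the looser lists of replicate 2 met.

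The regions away from promoters were spread over introns and intergenic DNA. Introns held 43.2% of the replicate 1-only regions and 36.5% of shared regions of like signal (odds ratio 1.33, 1.17 to 1.51). Intergenic DNA held 43.6% of the replicate 1-only regions and 36.0% of shared regions of like signal (1.40, 1.22 to 1.59), and exons held 4.0% and 3.06% of them (1.30, 0.939 to 1.81). The intron and intergenic intervals included 1 when −log10 p or width was matched. More than 100 kb from any protein-coding start lay 16.2% of the replicate 1-only regions and 9.32% of shared regions of like signal (odds ratio 1.92, 1.61 to 2.30), while 1 to 5 kb from a start lay 11.1% of the replicate 1-only and 13.8% of the like shared regions (0.757, 0.614 to 0.933). The mean log10 distance in bp to the nearest start was 4.21 in replicate 1-only regions, higher than in shared regions by 0.47 (0.42 to 0.53) at like signal, 0.16 (0.10 to 0.22) at like −log10 p and 0.13 (0.07 to 0.19) at like width.

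**Figure D3:**
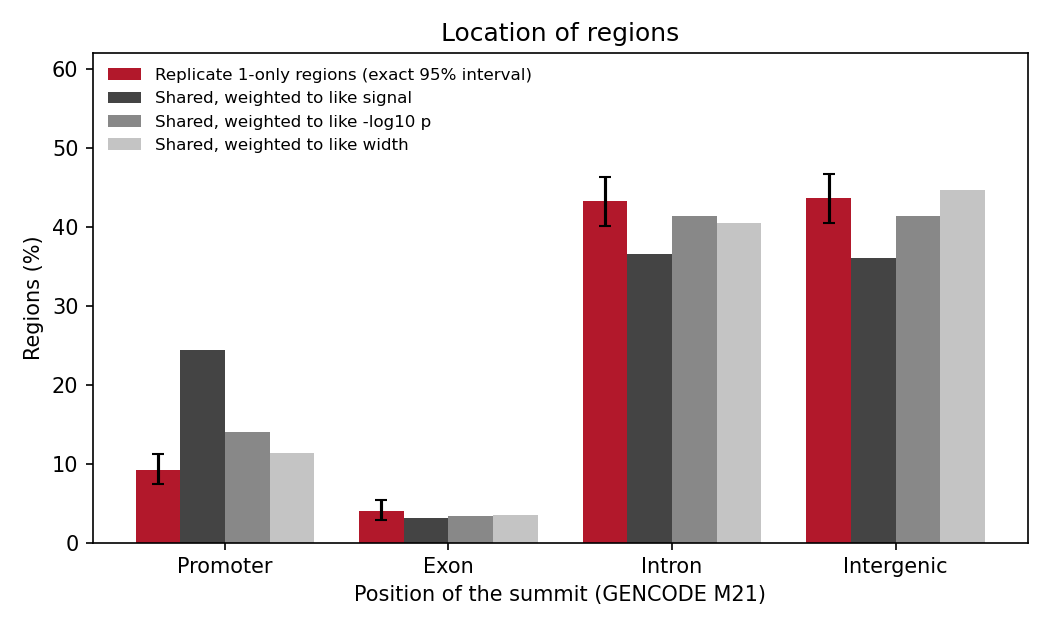
Percent of regions (y axis) with a summit at a promoter, exon, intron or in intergenic DNA (x axis), for the 1000 replicate 1-only regions with exact 95% intervals and for shared regions weighted to like signal, like −log10 p or like width. The promoter bar is 9.20% for replicate 1-only regions and 24.4%, 14% and 11.4% for the 3 sets of shared regions.

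The DNA of replicate 1-only regions held fewer G and C bases at like signal. Their GC content was 49.0% ± 8.06 (SD over 1000 regions), 3.08 percentage points (2.59 to 3.58) under shared regions of like signal, and they held 1.83 CpG per 100 bp where shared regions held 2.78 at like signal, 2.06 at like −log10 p and 1.87 at like width, the last with a difference of -0.044 (-0.20 to 0.11). The difference in GC content was -0.98 points (-1.49 to -0.46) at like −log10 p and 0.044 points (-0.48 to 0.57) at like width, so it was no longer apart from 0 among regions of like width. At like signal it was -1.68 points among distal regions alone and -1.62 points against shared regions that only the looser lists of replicate 2 met. Repeats that the genome sequence soft-masks made up 14.6% of the bases of replicate 1-only regions and 10.9% of those of shared regions of like signal. At least 50% of the bases were masked in 5.30% of the replicate 1-only regions and 1.58% of shared regions of like signal (odds ratio 3.53, 2.63 to 4.74), and the mean masked share differed by 2.5 points (1.43 to 3.56) at like −log10 p and by 0.591 points (-0.522 to 1.70) at like width.

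Matches to the insulator factor CTCF were more frequent, and matches to PU.1 and RUNX less frequent, at replicate 1-only summits than at shared summits of like signal. The search covered 908 distal replicate 1-only and 33193 distal shared summits, 50 bp to each side on both strands, for 22 motifs, and a motif was called when its interval, widened for 22 motifs, excluded 1. By that rule 2 motifs lay above 1, CTCF and YY1, and 2 below it, PU.1 and RUNX.

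The short CTCF letters were found at 24.8% of the replicate 1-only distal summits, at 16.7% of all distal shared ones and at 15% of those of like signal, an odds ratio of 1.91 (widened interval 1.5 to 2.44). At like −log10 p the odds ratio was 2.08 (1.61 to 2.68), and at like width it was 1.05 (0.815 to 1.35), where 24.3% of the shared summits had a match. The longer CTCF consensus, chosen after the short one had been searched, was found at 53.9% of the replicate 1-only summits and 28.2% of shared summits of like signal, and at 32.8% of all distal summits. Its odds ratio was 3.18 (2.56 to 3.95) at like signal, 3.24 (2.59 to 4.05) at like −log10 p and 0.965 (0.763 to 1.22) at like width. Among shared summits of like width, 54.6% held it. Of the 10 strongest distal replicate 1-only regions, 9 held the longer consensus, among them the 4 shown above and the one near Ttn, the gene of the muscle protein titin.

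YY1, a zinc finger factor of promoters and enhancers (AANATGGC), was matched at 2.64% of the replicate 1-only distal summits and 1.25% of shared ones of like signal (odds ratio 2.13, widened interval 1.10 to 4.12). In 5 of its 24 replicate 1-only matches it overlapped a short CTCF match, and its call was lost at like width (1.27), at like −log10 p (1.81) and when GC content was matched beside signal (1.93). PU.1 was matched at 2.64% of the replicate 1-only summits and 6.26% of shared ones of like signal (0.402, 0.212 to 0.762), against 6.77% of all distal shared summits. RUNX was matched at 3.85% of the replicate 1-only summits and 8.01% of like shared ones (0.443, 0.258 to 0.760), against 8.88% of all distal shared summits. Both intervals included 1 at like width, at 0.565 (0.295 to 1.08) for PU.1 and 0.643 (0.373 to 1.11) for RUNX.

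GATA letters showed the reverse dependence. They were matched at 16% of the replicate 1-only summits and 13.6% of shared ones of like signal (odds ratio 1.19, widened interval 0.891 to 1.58), which is no call, and at like width the odds ratio was 2.07 (1.53 to 2.80), the 1 motif called there. The CAGATG E-box of SCL (Tal1), a partner of GATA factors, had an odds ratio of 1.18 (0.855 to 1.64) at like signal. The E2F letters (TTTCCCGC or TTTGGCGC) had 1.26 (0.203 to 7.83), with 3 matches among 908 summits. Among the lowest odds ratios, SP (GGGGCGGGG, 3 matches), HOX/MEIS (TGATTNAT, 2 matches) and CREB (TGACGTCA, 1 match) rested on too few matches for a call. The ETS, NRF1 and EGR letters were matched at 0 of 908 summits, which allows a share of up to 0.330%. They were at 0.467%, 0.117% and 0.205% of all distal shared summits. At like signal these shares were 0.406%, 0.125% and 0.233%. At like width they were 0.230%, 0.0399% and 0.195%, all under that limit. At the 92 promoter summits no motif was called.

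**Figure D4:**
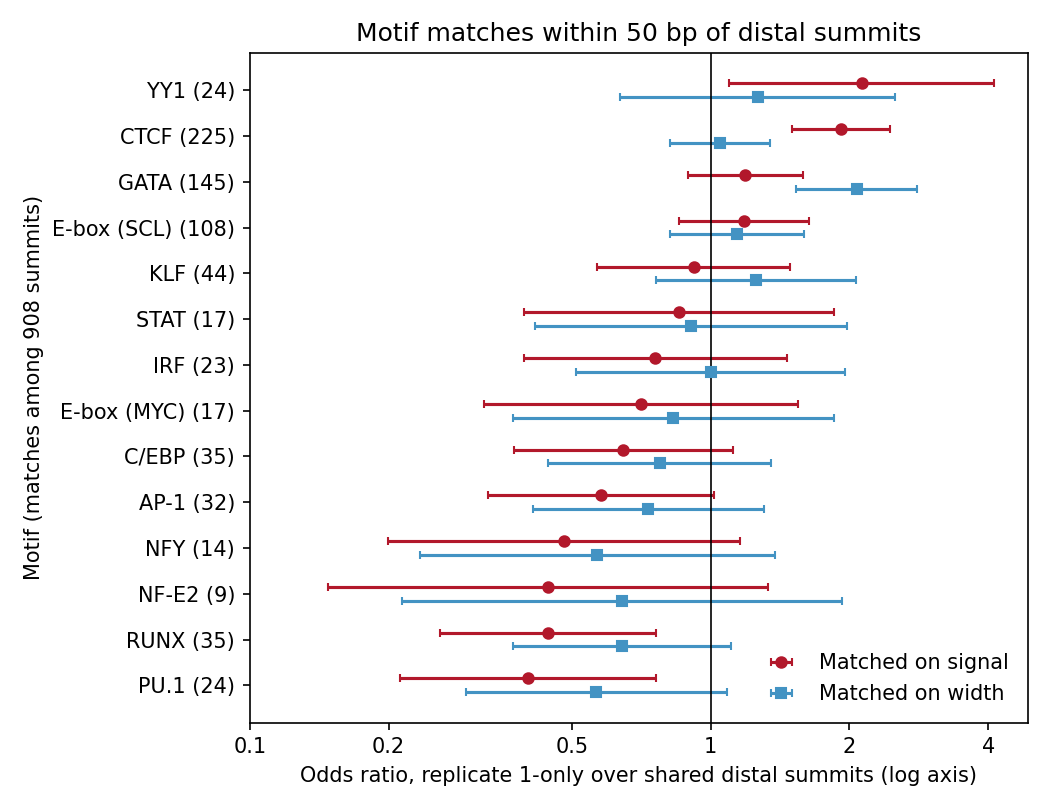
Odds ratio (x axis, log scale) of a motif match within 50 bp of the summit, distal replicate 1-only over distal shared regions, matched on signal (circles) or on width (squares), with intervals widened for 22 motifs; motifs with at least 9 matches among 908 replicate 1-only summits are shown (y axis, matches in brackets). CTCF lies at 1.91 on signal and 1.05 on width, GATA at 1.19 and 2.07.

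The same features ran in order of the support in replicate 2. The 1000 regions without a row, the 11880 met by its pseudoreplicated list but not its IDR-thresholded list, and the 33539 met by its IDR-thresholded list lay at promoters in 9.20%, 14.4% and 31.4% of cases. Short CTCF letters were at 24.8%, 18.9% and 15.7% of their distal summits. PU.1 letters were at 2.64%, 5.60% and 7.28% of them, and RUNX letters at 3.85%, 7.06% and 9.69%. Width ran in the same order, with medians of 260.5, 385 and 578 bp, and its part in these orders was not tested beyond the matching on width above. A single further region was met by the ranked list alone.

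Replicate 1-only regions close to a replicate 2 row differed from those far from any. The 122 under 300 bp from one had a median signal of 2.79, lay at a promoter in 30.3% of cases and held short CTCF letters at 8.24% of their 85 distal summits. The 202 at 20 kb or more had a median signal of 7.84, lay at a promoter in 1.98% of cases and held CTCF letters at 26.3% of their 198 distal summits, and 66.7% of these held the longer consensus. In between, the 362 regions at 5 to 20 kb held CTCF letters at 27% of their distal summits. GATA letters had no steady order with distance. They were at 15.3% of distal summits under 300 bp, 23.2% from 300 to 1000 bp and 14.7% from 1000 to 5000 bp. At 5 to 20 kb they were at 18%, and at 20 kb or more at 12.1%.

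**Figure D5:**
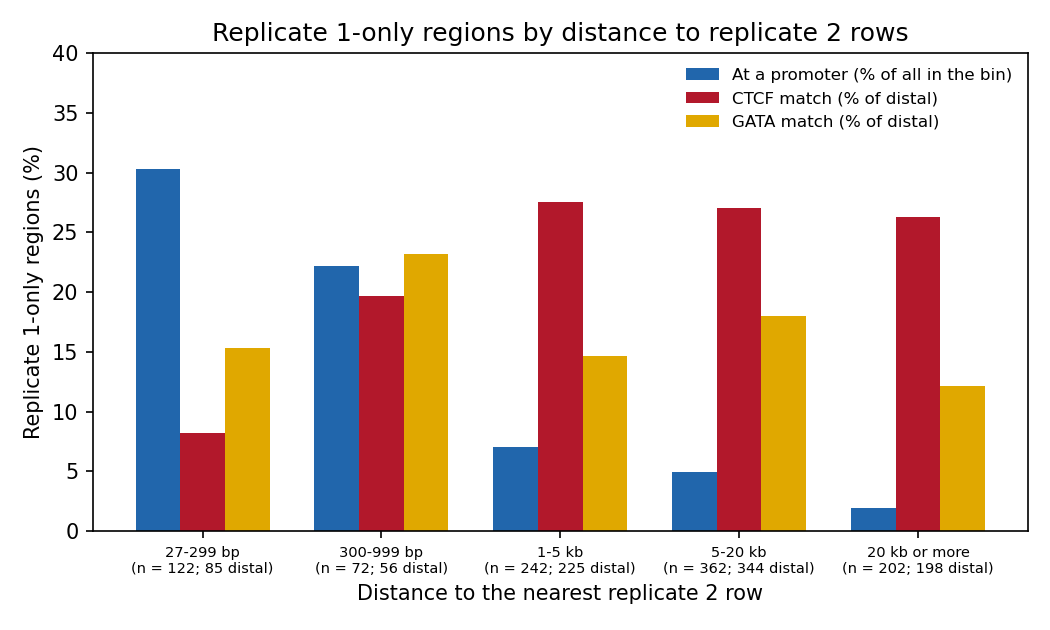
Percent of replicate 1-only regions (y axis) at a promoter, and percent of the distal ones with a short CTCF match or a GATA match, by distance to the nearest replicate 2 row (x axis, number of regions in brackets). Promoter location falls with distance, 30.3% in the nearest bin and 1.98% in the farthest, while CTCF matches are 8.24% in the nearest and 26.3% in the farthest.

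The strongest replicate 1-only region at a promoter lay 169 bp before the start of Chil5, a chitinase-like protein, at chr3:106032839-106033132. Its signal was 11.4 and its −log10 p 34.2, its signal was above that of 79.7% of all replicate 1 regions, and it was the single region assigned to Chil5. Next came Tmem106a (signal 9.54, 17 bp before the start), Plcb4, a phospholipase C (9.36, 792 bp after it), and Spon1, an extracellular matrix protein (9.31, 9 bp before it). Gm9936, a predicted gene, followed at 8.75, and both Trpm8, the cold-sensing ion channel, and Arfgef3 at 8.38. Llcfc1, needed for sperm and egg fusion in mice, had 8.23, Trim50, a ubiquitin ligase, 8.11, and Gdap1l1 7.91. These 10 lay between 6445 and 64429 bp from any replicate 2 row, and 9 of the 10 genes had no shared promoter region, the exception being Plcb4. Outside this rule and chosen after its values were seen, the Rh blood group gene Rhd of red cells had a replicate 1-only region 6 bp before its start (signal 7.76, −log10 p 27.5) and no shared promoter region. In all, the 92 promoter regions fell at 90 genes, of which 55 also had a shared promoter region and 35 had none, and 37 of the 92 lay under 300 bp from a replicate 2 row.

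The strongest distal replicate 1-only region lay in an intron, 6104 bp before the nearest start, that of BC051142, at chr17:34411200-34411480, with a signal of 12.3 and a −log10 p of 38.7. The second lay 3221 bp after a start of Map4, a microtubule-associated protein, at chr9:110071946-110072214 (signal 11.8, −log10 p 38.4). An intergenic region with a signal of 11.4 had its nearest start, that of the galactosyltransferase gene B3galt2, 1678722 bp away, and its nearest replicate 2 row 693174 bp away. Ttll6, a tubulin-modifying enzyme, and Dpys, an enzyme of pyrimidine breakdown, each had 11.1, and Ttn 11. Ino80d, a subunit of a chromatin remodeller, Ppm1a, a protein phosphatase, and Cyp4a14, a fatty acid hydroxylase, each had 10.8, and Fam210a had 10.6. The start of Ino80d lay 149773 bp from its region. Like that of B3galt2, it was beyond the 100 kb within which regions were assigned to genes. All 10 were met by the list of peaks the authors label replicated, and 1, that near BC051142, was also met by the conservative list.

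Replicate 1-only regions seldom gathered at 1 gene. Of 41454 replicate 1 regions within 100 kb of a protein-coding start, 838 had no replicate 2 row (2.02%), and 802 of the 14900 genes nearest to a region had at least 1 such region (5.38%). Distal ones numbered 1 at 690 genes, 2 at 25 and 3 at 2 genes. Abcc9, the sulfonylurea receptor subunit of a potassium channel, had no shared region at all: its 3 regions, with signals of 8.92, 8.65 and 5.85, were all replicate 1-only. Plpp1, a lipid phosphatase, had 3 of 7, with signals of 7.57, 7.52 and 6.40. The rule took the other 8 genes from the 25 by symbol, so they are not singled out by their data: 5430401F13Rik (2 of 2 regions), Aldh18a1 (2 of 4), Crebbp (2 of 6), Dlg1 (2 of 4), Dnajc27 (2 of 3), Eif4e (2 of 4), Etl4 (2 of 3) and Fem1c (2 of 8).

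By the rule used here, marker genes had replicate 1-only regions at about the rate of all genes. Over 14 lists, 11 of blood cells and the others of stromal and endothelial cells, housekeeping and other tissues, 9 of 485 regions were replicate 1-only (1.86%, exact interval 0.852 to 3.49), beside 2.02% over all protein-coding genes. Among the 18 stem and progenitor regulators, 1 region, 0.80% of theirs, was replicate 1-only, in Mecom, a regulator of blood stem cells, 1548 bp before a start (signal 8.11), and 11 further Mecom regions were shared. The 16 granulocyte-monocyte progenitor genes had 0 of 58, which allows up to 5.17%, and the early erythroid genes 0 of 31. Among the late erythroid genes, Rhag, which codes for a red cell membrane protein, had one in an intron (signal 7.84). The megakaryocyte genes had 2 of 34, near the platelet receptor subunit Gp9 (7.30) and in Rab27b (8.65), which acts in platelet granule secretion. Those of Rhag, Gp9 and Rab27b lay in introns or intergenic DNA, and each of these genes had at least 4 shared regions.

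As a check of the labelled cell type, 17 of the 18 stem and progenitor regulators and 15 of the 16 granulocyte-monocyte progenitor genes had a replicate 1 region nearest to them, shared or not, and so did 14900 of all 20698 protein-coding genes. Of the markers of other or more mature cells, 7 of 12 mature neutrophil, 11 of 13 macrophage, 8 of 12 B cell, 9 of 12 T cell, 6 of 9 NK cell and 9 of 10 stromal and endothelial genes had one, so the presence of a region does not set the labelled cell type apart. The counts of replicate 1-only regions near markers of other cells were too small to place them above or below the background of 2.02%. The mature neutrophil, macrophage, basophil, eosinophil and mast cell, B cell and NK cell lists had 0 of 15, 0 of 31, 0 of 19, 0 of 17 and 0 of 17 regions, which allows shares of up to 9.68% for the macrophage list and more for the others. The T cell list had 1 of 23, near Themis (signal 5.62), the stromal and endothelial list 1 of 33, in the endothelial receptor gene Tek (7.30), and the housekeeping list 0 of 31. The genes of other tissues had 2 of 19 (10.5%, 1.30 to 33.1), near the liver gene Apob (7.03) and the heart myosin gene Myh6 (6.49), and that of Myh6 was its single region. No defining marker of another cell type had more than 1 replicate 1-only region, but few genes of any kind did. Over all genes with a distal one, 690 had 1, 25 had 2 and 2 had 3.

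By their exact intervals, the gene families were not told apart from the background of 2.02%. Olfactory, vomeronasal and taste receptor genes had 7 of 179 (3.91%, 1.59 to 7.89), the strongest near Vmn1r236 (−log10 p 28.3), and the one near Olfr373, 201 bp before its start, was the only one at a promoter. Cytosolic ribosomal protein genes had 0 of 154 (exact interval 0 to 2.37%). The limit of 3 counts given for other counts of 0 was 1.95% here, just under the background. Zinc finger (Zfp) genes had 14 of 739 (1.89%, 1.04 to 3.16), with 2 each at Zfp64, Zfp236 and Zfp800. Respiratory chain genes had 5 of 143 (3.50%, 1.14 to 7.97), near Ndufaf2, Ndufb6, Ndufaf6, Cox4i2 and Uqcrq. The exact intervals of all 4 families hold the background.

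Most replicate 1-only regions were present in lists made from both replicates. The list labelled replicated met 950 of 1000 (95%), beside 99.995% of shared regions of like signal. The conservative IDR-thresholded list met 455 (45.5%), beside 96.3% of shared regions of like signal. In the replicated list, the strongest row over the 950 regions had a mean signal of 7.17, and over shared regions of like replicate 1 signal 8.02, a difference of -0.86 (-0.95 to -0.77). Those lists contain the reads of replicate 1, so this presence is no independent support. Only 2 regions were met by none of the 7 such lists.

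The opposite case was rarer, with lists of unlike size to search. On chromosomes 1 to 19 the IDR-ranked list held 123740 rows in replicate 1 and 105712 in replicate 2. The part of list size in the unequal shares was not tested. With the replicates exchanged, 99 of 36740 replicate 2 regions had no replicate 1 row (0.269%), with a median signal of 3.01 and a median width of 181 bp. Of these, 65.7% lay within 150 bp of a row of the other replicate, while 8.60% of the replicate 1-only regions did. Their odds ratio for promoter location was 0.464 (0.259 to 0.830) at like signal, and their GC content differed from that of shared replicate 2 regions of like signal by -5.07 points (-7.12 to -3.02), both in the direction found for the replicate 1-only regions.

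Replicate 1-only regions occurred on every chromosome analysed. Their share of replicate 1 regions lay between 1.47% on chromosome 17 (32 of 2171, odds ratio at like signal 0.636, 0.445 to 0.908) and 2.79% on chromosome 19 (37 of 1328, 1.31, 0.926 to 1.84). Chromosome 6, with 76 of 2766 (2.75%, 1.34, 1.05 to 1.70), was the other one whose interval excluded 1, without allowance for the 19 chromosomes. No 1-Mb window held more than 4, 6 windows held 4, and 140 of the 1000 had another within 100 kb.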

How the data were processed

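Peak lists of 2 ATAC-seq libraries and of both together, 13 in all, were used as deposited on mm10. The peak caller, like the aligner, is not given in the sources used here. The authors' lists give each peak a signal, a score, and a p-value and q-value as −log10, and the deposited signal scale and the read depth are not stated. Overlapping peaks on chromosomes 1 to 19 were merged per replicate, the strongest peak giving the values, and 1 bp of overlap counted as shared. The members and lists were chosen with earlier results of these data known. Summits were placed with GENCODE M21 (promoter within 1000 bp of a protein-coding start, gene assignment within 100000 bp) and sequence came from the RefSeq GRCm38 genome of the same build. Comparisons used 20 classes of signal with equal numbers of replicate 1-only regions, or 5 classes for motifs at promoter summits. They gave Mantel-Haenszel odds ratios (Robins-Breslow-Greenland 95% interval) and class-weighted mean differences, with no p-values. Shares of 1 library have exact Clopper-Pearson intervals, and a count of 0 allows 3 counts of the total. Named in the text were the 10 strongest promoter and distal regions, the 10 genes with the most distal ones (ties by symbol), the genes of the lists and families with one (1 of them is not reported here), and the 5 highest and 5 lowest motif odds ratios. The pattern for ribosomal protein genes was narrowed after its matches were seen. In the ranked lists made from both replicates, 4 columns of per-replicate values were not used. The code was tested on simulated data (pandas 2.3.3 and NumPy 2.4.6, with SciPy 1.17.1 for exact intervals, under Python 3.11.15). Other overlaps, thresholds, windows, starts and matching measures were tried.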

Additional observations from a re-analysis of the deposited data

How the results depend on the processing

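Over the alternatives, the counts, shares and differences that answer a comparison kept their direction and call, or for counts and shares their size, in 52 cases, and the others follow. The sizes of the promoter and GC differences moved within the same call, as given with those results. For single motifs and lists, 163 values kept direction and call or moved by less than their interval, 15 lost a call, 3 gained one and 27 list shares moved, nearly all with the IDR-thresholded list alone or in the upper 50%. The number of replicate 1-only regions was 12881 (27.7%) where only the IDR-thresholded list of replicate 2 counted, 106 (0.457%) among the upper 50% of regions by signal, and 99 (0.269%) with the replicates exchanged, and the share was 1.97% where a row within 150 bp also counted. The GC difference was 0.044 points over classes of width, the opposite sign, and -0.45 points over classes of signal and width together, an alternative added after seeing the data, with intervals that included 0. Motifs above 1 numbered 1 in several settings and 0 with the replicates exchanged. The 1 was CTCF in the upper 50%, over classes of −log10 p, of signal and GC, and against regions met by looser lists alone. It was GATA over classes of width and of signal and width together. There the CTCF odds ratios were 1.05 (0.815 to 1.35) and 1.19 (0.918 to 1.53), no longer a call. Motifs below 1 numbered 4 with the IDR-thresholded list alone and 0 in the upper 50%, over width, over signal and width, and with the replicates exchanged. The 14 marker lists held 0% replicate 1-only regions in the upper 50%, beside 0.443% over all protein-coding genes. With the IDR-thresholded list alone they held 33.4% (29.2 to 37.8), beside 27.2% over all protein-coding genes, which that interval does not include. Odds ratios on the other side of 1, all with intervals that included 1, were 0.834 for CTCF, 0.859 for GATA, 1.33 for PU.1 and 3.06 for SP with the replicates exchanged, 0.729 for GATA, 1.30 for HOX/MEIS and 1.22 for SP in the upper 50%, and 0.735 and 0.770 for E2F over width and over signal and width. The cause of these shifts was not tested. Leaving out either replicate gives no value, since the rule needs both. No paired analysis was possible because both libraries belong to 1 group. Unknown read depth limits all comparisons: regions absent from the lists of replicate 2 are not shown to be closed there.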
